A study of Mus musculus with 16 samples.

Results

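The Rab GTPases are small membrane-bound proteins that switch between a GTP-bound active form and a GDP-bound inactive form and that direct vesicles from one compartment of the cell to the next. Guanine nucleotide exchange factors (GEFs) switch them on, GTPase-activating proteins (GAPs) switch them off, and GDP dissociation inhibitors carry the inactive form through the cytosol. In muscle and heart they are best known for moving the glucose transporter GLUT4 (gene Slc2a4) and membrane receptors between endosomes and the cell surface. The members were all array probes whose gene symbol is Rab followed by a number and at most a single letter, which gave 87 probes for 57 genes among 25697 probes for 16593 named genes. Of these, 57 Rab probes for 41 genes were detected on at least 3 of the 4 arrays of some group and were tested, together with 12246 such probes in all.

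Gene expression was measured with Illumina MouseRef-8 v2 BeadChips, 1 array for each heart, in 16 mice of the C57BL/6 background aged 18 weeks. The groups were female and male cs-ERα-/- mice and female and male WT mice (4 mice in each group). In cs-ERα-/- mice a Cre recombinase driven by the cardiomyocyte promoter α-MHC deleted the loxP-flanked exon 3 of the estrogen receptor α gene (Esr1). The WT mice carried the loxP-flanked exon without the deletion. WT mice that carry Cre are not named among the groups, so an effect of Cre itself and an effect of losing the receptor cannot be told apart. The sample was heart tissue and not purified cardiomyocytes, so that more cells of a type and more RNA in each such cell cannot be told apart either. The 2 Esr1 probes were not detected on any of the 16 arrays, and neither were the 3 probes for estrogen receptor β (Esr2). The arrays thus gave no check of the genotype labels from Esr1. By qRT-PCR, the paper reports reduced ERα expression in heart tissue of knockout mice of both sexes.

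Between 11492 and 12610 probes were detected on each array, and pairs of arrays correlated at 0.988 to 0.995. All 9 cardiomyocyte markers on the array passed the detection filter, with a median difference of 0.028 between genotypes and no call. The myeloid list differed between genotypes: 13 of its 17 measured genes rose in cs-ERα-/- hearts and 0 fell, with a median log2 difference of 0.39, against -0.006 over all tested probes. The summed signal of that list was 28680 to 30647 in female cs-ERα-/- hearts and 19389 to 23622 in female WT hearts, and 27530 to 38314 in male cs-ERα-/- hearts and 22632 to 27467 in male WT hearts. The pan-leukocyte marker Ptprc was not detected on any array. For these counts, 2.69% of all named genes rose and 1.42% fell, each gene by its brightest probe. Of 11 measured fibroblast markers 1 rose (Dcn) and 0 fell, with a median of 0.125, and their summed signal was 27763 to 29222 in female cs-ERα-/- hearts against 23759 to 26364 in female WT hearts, and 25260 to 29995 in male cs-ERα-/- hearts against 23759 to 25851 in male WT hearts. Of 9 measured endothelial markers none was called, with a median of -0.072. Their summed signal was 15505 to 19632 in female cs-ERα-/- hearts against 17540 to 20503 in female WT hearts, and 16054 to 17762 in male cs-ERα-/- hearts against 17265 to 19338 in male WT hearts. Of 6 measured smooth muscle and pericyte markers 1 rose (Acta2, smooth muscle actin, 0.52, limma adjusted p = 0.00372) and 0 fell, with a median of -0.086, and the other 5 differed by -0.18 to -0.04. The summed signal of these 6 was 9957 to 14784 in female cs-ERα-/- hearts against 8084 to 10832 in female WT hearts, and 9736 to 12864 in male cs-ERα-/- hearts against 8367 to 9923 in male WT hearts. Acta2 weighed most in this sum.

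The genes Rab31, Rab32, Rab3d and Rab8b were higher in cs-ERα-/- hearts, and no Rab gene was called lower. Values are log2 of the normalized probe signal, and a probe was called when its adjusted p in limma (Benjamini-Hochberg over the 12246 tested probes) was under 0.05. The 4 calls were 7.02% of the 57 tested Rab probes, while 3.74% of all tested probes were called for genotype and 2.43% were called higher. An unadjusted p under 0.05 was found for 10 Rab probes (17.5%), against 17.6% of all tested probes. The differences were small, at most 0.36 on the log2 scale, and most Rab genes differed little between genotypes. Of the 57 Rab probes, 39 differed by less than 0.1, and the median absolute difference was 0.064, against 0.073 over all tested probes.

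The promoters of these 4 genes are printed because they are the Rab genes that differed, and because the deleted receptor is a transcription factor that binds DNA at estrogen response elements. Each is the RefSeq sequence from 250 bases before to 50 bases after a gene start as the promoter table gives it, 5′ to 3′ on the strand of the gene (GRCm38.p6). Capitals mark the receptor half-site AGGTCA (or its complement TGACCT) and the GC box GGGCGG (or CCGCCC), the motif bound by Sp1. For Rab3d that start lies inside the gene's outer end in the gene table.
Rab31, chr17:65772703-65773002, minus strand: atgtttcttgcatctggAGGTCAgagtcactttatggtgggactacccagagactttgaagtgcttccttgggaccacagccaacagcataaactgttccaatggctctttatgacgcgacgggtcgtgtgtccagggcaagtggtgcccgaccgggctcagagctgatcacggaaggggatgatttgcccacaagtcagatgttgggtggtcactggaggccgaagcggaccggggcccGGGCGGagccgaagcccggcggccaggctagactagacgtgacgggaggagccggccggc
Rab32, chr10:10558158-10558457, minus strand: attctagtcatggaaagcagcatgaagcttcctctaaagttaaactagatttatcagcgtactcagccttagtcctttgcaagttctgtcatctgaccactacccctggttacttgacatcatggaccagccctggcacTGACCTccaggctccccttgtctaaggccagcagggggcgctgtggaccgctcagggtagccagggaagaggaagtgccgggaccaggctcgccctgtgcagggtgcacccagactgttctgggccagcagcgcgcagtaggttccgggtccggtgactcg
Rab3d, chr9:21918134-21918433, minus strand: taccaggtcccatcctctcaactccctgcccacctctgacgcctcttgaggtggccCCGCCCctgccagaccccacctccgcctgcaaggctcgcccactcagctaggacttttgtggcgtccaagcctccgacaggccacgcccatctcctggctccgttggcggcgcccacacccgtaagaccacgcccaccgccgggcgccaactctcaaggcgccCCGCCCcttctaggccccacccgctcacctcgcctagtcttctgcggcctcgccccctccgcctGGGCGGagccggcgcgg
Rab8b, chr9:66919656-66919955, minus strand: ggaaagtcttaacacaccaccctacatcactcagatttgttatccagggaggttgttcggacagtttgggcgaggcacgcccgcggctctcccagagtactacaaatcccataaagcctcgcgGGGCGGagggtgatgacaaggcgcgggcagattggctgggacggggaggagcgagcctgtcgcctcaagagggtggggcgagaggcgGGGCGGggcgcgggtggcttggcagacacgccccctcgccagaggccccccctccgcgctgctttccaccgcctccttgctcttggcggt

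Both strands were searched, and overlap between the motifs was allowed. The Rab31 window held 1 half-site, with its first base at position -233 from the start, and 1 GC box. The Rab32 window held 1 half-site, at position -111, and no GC box. The Rab3d window held 3 GC boxes and the Rab8b window 2, and neither held a half-site. The full palindromic estrogen response element, GGTCA and TGACC with any 3 bases between them, was in 0 of the 59 promoters of the 47 Rab genes that matched an entry, and in 0.07% of all 32851 promoters of this length. The half-site was in 8.47% of the Rab promoters and 16.3% of all promoters, and the GC box in 67.8% and 35.7%. The box TATAAA was in 6.78% of Rab promoters and 13.6% of all. A match is a run of letters and not a measured binding site.

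Rab31, which moves cargo between the trans-Golgi network and endosomes and in cultured adipocytes holds GLUT4 inside the cell, had the most significant difference of the family. Its log2 signal was 10.60, 10.41, 10.50 and 10.28 in female cs-ERα-/- hearts, against 10.11, 10.08, 10.18 and 10.04 in female WT hearts. In males it was 10.37, 10.40, 10.41 and 10.23 in cs-ERα-/- hearts, against 9.91, 10.20, 10.03 and 9.96 in WT hearts. Every cs-ERα-/- heart was above every WT heart, and Rab31 was the only Rab probe of which this was true; 0.392% of all tested probes separated the genotypes in that direction. Rab31 averaged 10.40 ± 0.12 in the cs-ERα-/- genotype, against 10.07 ± 0.10 in WT (mean ± SD, n = 8 mice per genotype), a 1.26-fold rise (log2 difference 0.33, SE 0.05, limma adjusted p = 0.000543). It was also the only Rab probe called within each sex. The difference was 0.34 in females (limma adjusted p = 0.0306), where 0.71% of all tested probes were called, and 0.33 in males (limma adjusted p = 0.0294), where 0.955% were called. Each of 16 further analyses left out 1 mouse, which could be of either sex. Leaving out 1 mouse of the same sex ended the call within females in 6 of them (adjusted p up to 0.128, without the first female cs-ERα-/- mouse). Within males the call also ended in 6 of them (up to 0.114, without the first male WT mouse). The myeloid markers given above and the summed fibroblast signal, in which Dcn weighs most, moved with genotype too, as did Acta2. Their part in the differences of Rab31, Rab32, Rab3d and Rab8b was not tested. Scaling the arrays to a common median in place of quantile normalization ended the call (limma adjusted p = 0.0744). That median was taken over all 25697 probes, of which 11492 to 12610 were detected on each array.

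Rab32, which delivers enzymes to melanosomes and other lysosome-related organelles and also sits on mitochondria, rose by a similar amount. In females, Rab32 was at 7.35, 7.48, 7.20 and 7.53 in cs-ERα-/- hearts, against 6.90, 7.08, 7.07 and 7.18 in female WT hearts. Male cs-ERα-/- hearts had 7.45, 7.25, 7.64 and 7.40, against 7.10, 7.25, 6.89 and 6.95 in male WT hearts. The female groups did not overlap, and in males the lowest cs-ERα-/- heart and the highest WT heart were both at 7.25, the WT heart being the higher before rounding. The mean was 7.41 ± 0.15 in the cs-ERα-/- genotype, against 7.05 ± 0.13 in WT (mean ± SD, n = 8 mice per genotype), a 1.28-fold difference (log2 0.36, SE 0.08, limma adjusted p = 0.00899). Within a single sex Rab32 was not called, with 0.33 in females (limma adjusted p = 0.213) and 0.39 in males (limma adjusted p = 0.106). Median scaling ended the call here too (limma adjusted p = 0.107). The other measured Rab of this role, Rab29, which acts at the Golgi and lysosome, differed by 0.06 (limma adjusted p = 0.603), and both probes of Rab38, the closest relative of Rab32, were not detected on any array.

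**Figure D1:**
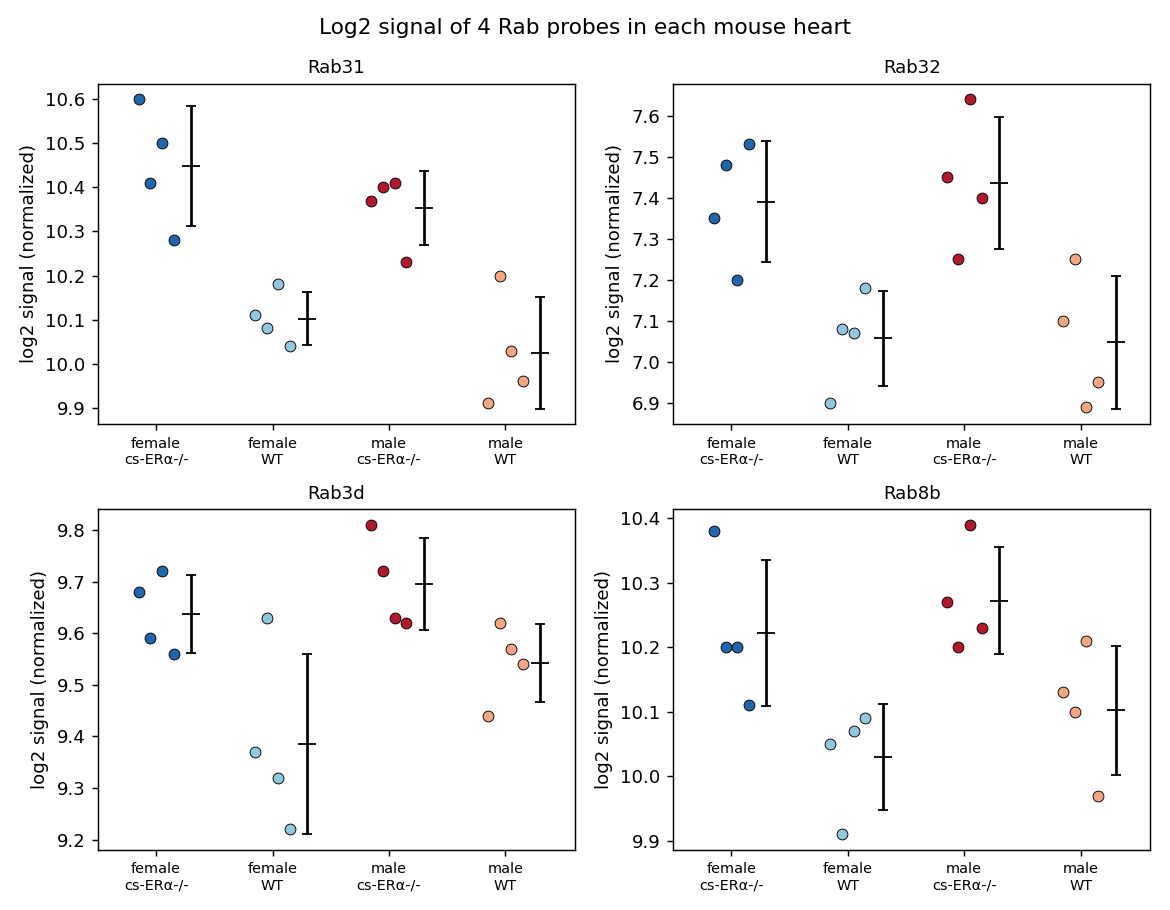
Normalized log2 signal of Rab31, Rab32, Rab3d and Rab8b (probe called for genotype) in each of 16 hearts, by group. Points are single mice, and the bar beside each group is the mean ± SD (n = 4); the vertical axes differ between panels and do not start at 0. All 8 cs-ERα-/- hearts lie above all 8 WT hearts for Rab31, whereas the genotypes overlap for Rab32 (lowest cs-ERα-/- heart 7.20, highest WT heart 7.25), Rab3d and Rab8b.

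Rab3d, a Rab of secretory granules in exocrine cells, showed a smaller rise. Female cs-ERα-/- hearts had 9.68, 9.59, 9.72 and 9.56, against 9.37, 9.63, 9.32 and 9.22 in female WT hearts, of which the second lay among the cs-ERα-/- hearts. Male cs-ERα-/- hearts had 9.81, 9.72, 9.63 and 9.62, against 9.44, 9.62, 9.57 and 9.54 in male WT hearts, so that the lowest cs-ERα-/- heart lay above the highest WT heart by less than the rounding. The mean was 9.67 ± 0.08 in the cs-ERα-/- genotype, against 9.46 ± 0.15 in WT (mean ± SD, n = 8 mice per genotype; log2 difference 0.20, SE 0.06, limma adjusted p = 0.0418). This call was near the threshold. It was kept in 5 of the 16 analyses that left out 1 mouse, and the adjusted p over those ran between 0.00733 (without the second female WT mouse) and 0.0873 (without the third female cs-ERα-/- mouse).

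Rab8b, a close relative of Rab8a that carries vesicles to the plasma membrane, was measured by 2 probes. On the brighter probe male cs-ERα-/- hearts had 10.27, 10.20, 10.39 and 10.23, against 10.13, 10.10, 10.21 and 9.97 in male WT hearts. Female cs-ERα-/- hearts had 10.38, 10.20, 10.20 and 10.11, against 10.05, 9.91, 10.07 and 10.09 in female WT hearts. The groups were apart in females and overlapped in males. The mean was 10.25 ± 0.10 in the cs-ERα-/- genotype, against 10.07 ± 0.09 in WT (mean ± SD, n = 8 mice per genotype; log2 difference 0.18, SE 0.05, limma adjusted p = 0.047). The other probe averaged 9.73 ± 0.14 in the cs-ERα-/- genotype, against 9.59 ± 0.09 in WT (mean ± SD, n = 8 mice per genotype) and was not called (0.13, limma adjusted p = 0.22). The call was kept in 4 of the 16 analyses without 1 mouse (adjusted p between 0.0324 without the fourth female cs-ERα-/- mouse and 0.103 without the fourth male WT mouse).

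The Rab proteins of GLUT4 vesicles and exocytosis were examined as a group because ERα has been tied to glucose uptake in the heart. This group was listed with earlier results of these arrays known, among them the higher Rab31 that the paper reports. Of its 9 measured genes 2 rose (Rab31 and Rab8b) and 0 fell, with a median log2 difference of 0.007; over all named genes, each by its brightest probe, 2.69% rose. Rab10, the main Rab of GLUT4 vesicles in mouse adipocytes, ranged between 6.89 and 7.21 in cs-ERα-/- hearts and between 6.78 and 7.33 in WT hearts (difference -0.02, SE 0.08). Rab14, also found on GLUT4 vesicles, ranged between 11.52 and 11.70 in cs-ERα-/- hearts and 11.54 and 11.72 in WT hearts (-0.04, SE 0.04). Rab8a and Rab13, which act on GLUT4 in cultured rat muscle cells, lay as close together: the 2 Rab8a probes differed by 0.01 (SE 0.05) and -0.03 (SE 0.09) and Rab13 by -0.02 (SE 0.09), all with limma adjusted p of 0.912 or above. Rab4b differed by 0.03, and the 2 probes of Rab28 by -0.01 and -0.04. The differences of Rab10, Rab13 and Rab8a changed sign when some single mice were left out.

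Rab4a, which returns receptors and GLUT4 from early endosomes to the cell surface, had the smallest interaction p and the widest spread of the family. In females, Rab4a was at 8.61, 8.02, 8.50 and 7.92 in cs-ERα-/- hearts, against 6.58, 7.13, 6.97 and 8.03 in female WT hearts. Male cs-ERα-/- hearts had 8.07, 7.95, 7.04 and 7.12, against 8.66, 7.34, 8.63 and 8.14 in male WT hearts. In females 3 of the 4 WT hearts lay below every cs-ERα-/- heart, and in males 3 of the 4 WT hearts lay above every cs-ERα-/- heart, so that the groups overlapped in both sexes through 1 WT heart each. The genotype difference was 1.08 in females (SE 0.29, limma adjusted p = 0.0898) and -0.65 in males (SE 0.29, limma adjusted p = 0.374), and 0.22 over both sexes (SE 0.21, limma adjusted p = 0.636). The female difference minus the male difference was 1.73 (SE 0.41). Its unadjusted p of 0.000359 was the third smallest among the 12246 tested probes, yet after adjustment it did not pass (limma adjusted p = 0.757). No probe passed for the interaction (0 of 12246 in limma, the smallest adjusted p being 0.757), and 456 had an unadjusted p under 0.05 (3.72%).

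The spread of Rab4a within groups was the widest of the 57 Rab probes. Its within-group SD was 0.54, the next highest was 0.35 (Rab15), and the median was 0.15 both for the Rab probes and for all tested probes. A wider spread than that of Rab4a was found for 0.204% of all tested probes. The probe was detected on all 16 arrays. Without the fourth female WT mouse, at 8.03 the highest of its group, the female difference was called (1.37, limma adjusted p = 0.0202); without the first female WT mouse it was 0.89 (limma adjusted p = 0.329). Median scaling also led to a call in females (1.11, limma adjusted p = 0.0437). A single probe measured this gene, so no other probe could be set beside it.

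All 3 measured markers of red blood cells had a positive interaction, as Rab4a and Rab6b had, at 0.35 for the globin gene Hba-a1 (unadjusted p = 0.00308), 0.87 for the heme synthesis gene Alas2 (unadjusted p = 0.0016) and 0.99 for the anion exchanger gene Slc4a1 (unadjusted p = 0.00906), and none was called in limma (adjusted p = 0.999 each). Their median genotype difference was 0.492 in females and -0.344 in males. Their summed signal was 43470 to 55745 in female cs-ERα-/- hearts against 38325 to 49063 in female WT hearts, and 44484 to 49471 in male cs-ERα-/- hearts against 48649 to 55038 in male WT hearts. Almost all of this sum came from the Hba-a1 probe, so it says little of Alas2 and Slc4a1. The cardiomyocyte marker Myh7, the slow myosin heavy chain, had an interaction of the other sign (-1.41, unadjusted p = 0.000743, limma adjusted p = 0.877). The part of these markers in the differences of Rab4a and Rab6b was not tested.

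**Figure D2:**
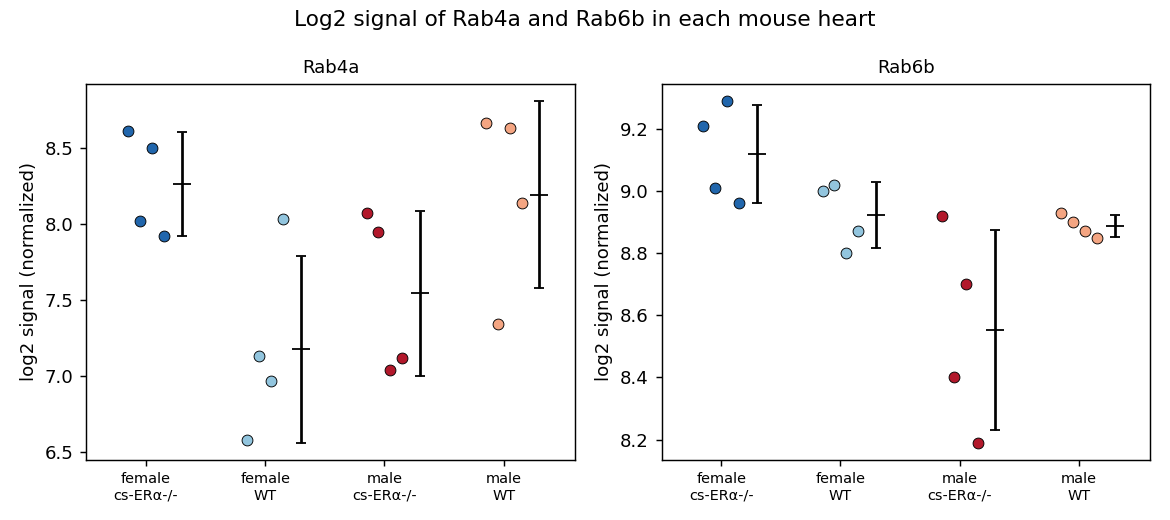
Normalized log2 signal of Rab4a and Rab6b in each of 16 hearts, by group. Points are single mice and the bar beside each group is the mean ± SD (n = 4); the vertical axes do not start at 0. The means of cs-ERα-/- hearts lie above those of WT hearts in females and below them in males for both genes, and Rab4a varies more within groups than any other Rab probe.

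Rab6b, an isoform of the Golgi Rab6 that is abundant in brain, had the second lowest interaction p of the family. In females, Rab6b was at 9.21, 9.01, 9.29 and 8.96 in cs-ERα-/- hearts, against 9.0, 9.02, 8.80 and 8.87 in female WT hearts. Male cs-ERα-/- hearts had 8.92, 8.40, 8.70 and 8.19, against 8.93, 8.90, 8.87 and 8.85 in male WT hearts. The male cs-ERα-/- hearts had an SD of 0.32, and the male WT hearts had an SD of 0.03. The genotype difference was 0.20 in females (limma adjusted p = 0.574) and -0.34 in males (limma adjusted p = 0.204), which differ by 0.53 (SE 0.16, unadjusted p = 0.00335, limma adjusted p = 0.999). Without the first male cs-ERα-/- mouse the male difference was -0.46 and was called (limma adjusted p = 0.0463). Rab4a and Rab6b were the 2 of 57 Rab probes (3.51%) with an unadjusted interaction p under 0.05. The next 4 were 1 probe each of Rab22a (-0.20), Rab43 (-0.31), Rab6a (-0.36) and Rab7 (-0.27), with unadjusted p between 0.0885 and 0.119.

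**Figure D3:**
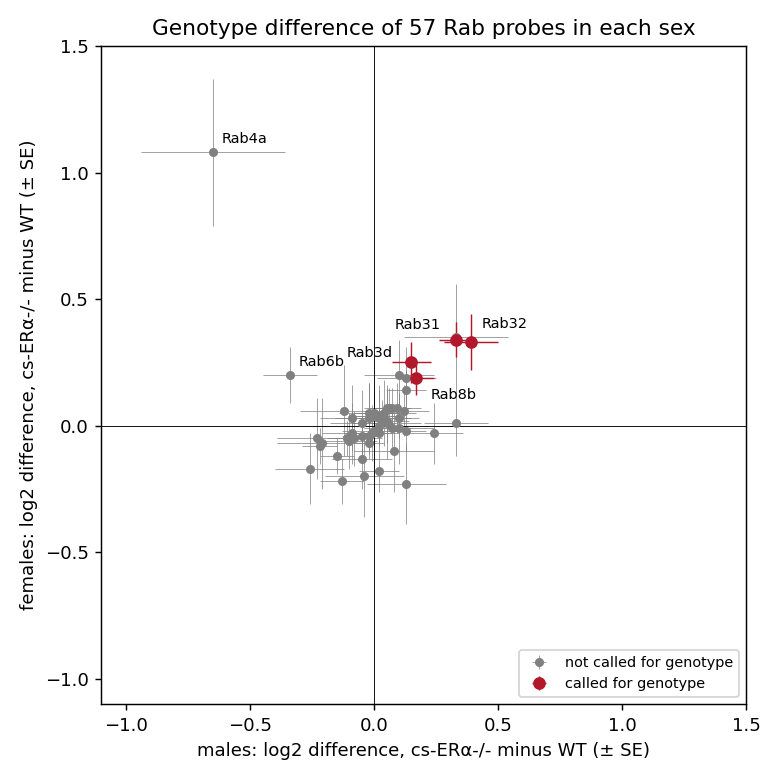
Genotype difference (cs-ERα-/- minus WT, log2) of the 57 tested Rab probes in females (vertical axis) against males (horizontal axis), with bars of 1 SE. Red points were called for genotype over both sexes. Rab4a lies apart at 1.08 in females and -0.65 in males, and the 4 called probes are positive in both sexes.

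Among early endosome Rab proteins, 1 of 6 measured genes rose (Rab31, which was also counted in the GLUT4 group) and 0 fell, with a median of 0.018. The share that rose over all named genes, each by its brightest probe, was 2.69%. Rab22a, which sorts cargo in early endosomes, had 1 probe at 7.88 to 8.24 in cs-ERα-/- hearts and 8.21 to 8.33 in WT hearts. This probe did not overlap between genotypes in males, where all 4 cs-ERα-/- hearts (8.10 to 8.16) were below all 4 WT hearts (8.21 to 8.32). It was not called in males (-0.13, SE 0.09, limma adjusted p = 0.579) or over both sexes (-0.18, SE 0.06, limma adjusted p = 0.114). The other tested probe of Rab22a differed by -0.08 over both sexes (limma adjusted p = 0.492) and by -0.18 in females (limma adjusted p = 0.396). It did not overlap in females, at 8.31 to 8.56 in cs-ERα-/- hearts and 8.58 to 8.71 in WT hearts. With 4 mice against 4 such separation was common, since 5.99% of all tested probes did not overlap in females and 6.88% in males. Of the 57 Rab probes, 4 did not overlap in females (Rab31, Rab32 and Rab8b higher, Rab22a lower) and 3 in males (Rab31 and Rab3d higher, Rab22a lower). Rab21, which carries integrins inward from the surface, was at 8.79 to 8.96 in cs-ERα-/- hearts and 8.86 to 9.11 in WT hearts (-0.14, SE 0.05, limma adjusted p = 0.153). Rab5a (2 probes, -0.06 and 0.06) and Rab5c (0.07), which drive the fusion of early endosomes, and the epithelial Rab17 (-0.03, detected on 10 arrays) were not called.

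No gene was called among the recycling endosome Rab proteins (6 measured, median 0.03), the late endosome and lysosome group (6, 0.026), the endoplasmic reticulum and Golgi group (9, 0.034), or Rab23, Rab40c and Rab42 (3, -0.011). In the recycling group Rab15 had a difference as large as that of Rab31 but was dim and variable. It was detected on 11 of 16 arrays, at 5.41 to 6.25 in cs-ERα-/- hearts and 5.01 to 6.38 in WT hearts (0.34, SE 0.15, limma adjusted p = 0.231), and of 24 alternative analyses it passed in 1, without the second female WT mouse (0.47, limma adjusted p = 0.0447). Rab11a and Rab11b, the central Rab proteins of slow recycling, differed by 0.03 and -0.03, and Rab35 by 0.03.

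In the late endosome and lysosome group Rab7b was at 7.05 to 7.38 in cs-ERα-/- hearts and 6.71 to 7.31 in WT hearts (0.16, SE 0.08, limma adjusted p = 0.338). The 3 probes of Rab7, which directs late endosomes to lysosomes, differed by 0.02, 0.11 and -0.12, and the 2 of Rab9, which returns cargo from late endosomes to the Golgi, by -0.09 and 0.05. The probes of Rab24, an autophagy Rab, differed by 0.06, 0.02 and 0.03, those of Rab34 by 0.08 and 0.09, and Rab12 by -0.07. The probes of a gene thus gave both signs for 7 of the 12 genes with several tested probes. This was not confined to differences under 0.1, since the 2 probes of Rab42 differed by 0.15 and -0.14.

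In the endoplasmic reticulum and Golgi group the largest difference was that of Rab39b, at 5.50 to 5.82 in cs-ERα-/- hearts and 5.64 to 6.16 in WT hearts (-0.22, SE 0.10, limma adjusted p = 0.27). Rab43 was at 6.00 to 6.60 in cs-ERα-/- hearts and 5.82 to 6.23 in WT hearts (0.17, SE 0.09, limma adjusted p = 0.348). Rab1a (-0.01), Rab1b (-0.14, 0.03 and -0.08) and Rab2a (-0.02), which carry vesicles between the endoplasmic reticulum and the Golgi, were not called, and neither were Rab6a (0.04, 0.02 and -0.05), Rab18 (0.03) and Rab33b (0.05). In regulated secretion, where Rab3d rose, the related Rab3a of synaptic vesicles lay lower, at 10.09 to 10.21 in cs-ERα-/- hearts and 10.13 to 10.59 in WT hearts (-0.15, SE 0.05, limma adjusted p = 0.108). Of 25 alternative analyses 1 called it, without the third male WT mouse (-0.19, limma adjusted p = 0.0246). Rab27a, which docks secretory vesicles, differed by 0.00 (SE 0.10). Rab23, which acts in Hedgehog signaling, Rab40c, a subunit of ubiquitin ligases, and the 2 probes of Rab42 differed by -0.01, -0.08, 0.15 and -0.14.

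**Figure D4:**
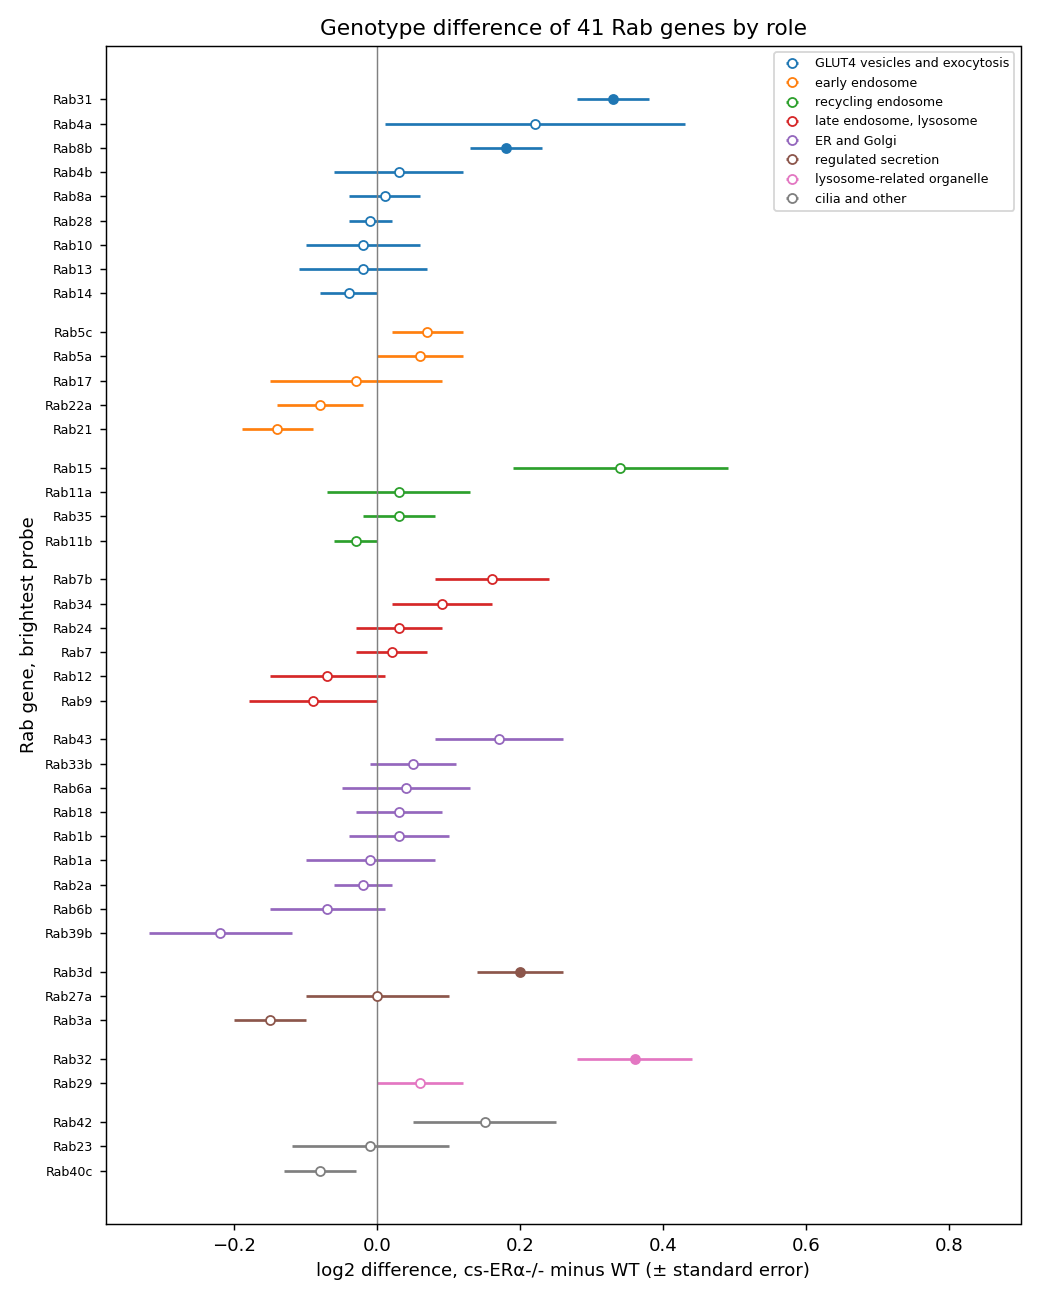
Genotype difference (cs-ERα-/- minus WT, log2, with bars of 1 SE) of the 41 tested Rab genes, each by its brightest probe, grouped and coloured by role. Rab31, Rab4a and Rab4b, which have a second role, stand in the first group. Filled points were called at an adjusted p under 0.05; these are Rab31, Rab8b, Rab3d and Rab32, all to the right of 0, and most open points lie within 0.1 of it.

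Between the sexes no Rab probe was called (0 of 57 in limma, against 1.27% of all tested probes); 7 had an unadjusted p under 0.05 (12.3%, against 12.9% of all). The nearest was Rab6b, at 8.80 to 9.29 in females and 8.19 to 8.93 in males (0.30, SE 0.08, limma adjusted p = 0.078). In cs-ERα-/- mice alone the Rab6b difference was 0.56 (limma adjusted p = 0.116), and in WT mice alone it was 0.03 (limma adjusted p = 0.94). Leaving out the first male cs-ERα-/- mouse led to a call (0.36, limma adjusted p = 0.0115). The next probes were those of Rab1b (-0.20), Rab6a (-0.29), Rab9 (0.25), Rab34 (0.16), Rab42 (0.23) and Rab1a (0.19), with limma adjusted p between 0.248 and 0.376. Rab1b was at 6.89 to 7.37 in females and 7.05 to 7.35 in males, and its other 2 probes differed by -0.06 and 0.00. The other probes of Rab6a (0.07 and 0.00), Rab9 (-0.04), Rab34 (0.10) and Rab42 (0.02) likewise gave smaller differences.

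The remaining 30 of the 87 Rab probes failed the detection filter, 24 of them without detection on any array and 6 with detection on some. They left 16 genes untested. Of these genes 12 were detected on no array: Rab2b, Rab3b, Rab3c, Rab20, Rab25, Rab30, Rab33a, Rab36, Rab37, Rab38, Rab40b and Rab44. They include Rab3c, a Rab of neurons, and Rab25, a Rab of epithelia. The other 4 were detected on a few arrays, with Rab9b on 5, Rab39 on 4, Rab27b on 3 and Rab19 on 2. A further probe each of Rab13 and Rab17, which were tested through another probe, was detected on 7 and 4 arrays.

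The genes that regulate Rab proteins were then examined. Among 31 measured Rab GEF genes, 2 fell in cs-ERα-/- hearts and 0 rose. Of all named genes, each by its brightest probe, 1.42% fell and 2.69% rose. Dennd2a, a DENN domain GEF that acts on Rab9 proteins in human cells, had 7.34, 7.57, 7.42 and 7.22 in male cs-ERα-/- hearts, against 8.13, 8.32, 8.28 and 8.35 in male WT hearts. Female cs-ERα-/- hearts had 7.49, 7.38, 7.51 and 7.41, against 8.24, 8.28, 8.26 and 8.13 in female WT hearts. The genotypes were far apart in both sexes, at 7.42 ± 0.11 in the cs-ERα-/- genotype, against 8.25 ± 0.08 in WT (mean ± SD, n = 8 mice per genotype; log2 difference -0.83, SE 0.06, limma adjusted p = 1.92e-08). Rab9 was not called (-0.09 and 0.05), and Rab9b was not tested. Trappc2l, a subunit of the TRAPP complexes that activate Rab1, averaged 11.82 ± 0.06 in the cs-ERα-/- genotype, against 11.98 ± 0.04 in WT (mean ± SD, n = 8 mice per genotype; -0.16, limma adjusted p = 0.0123), while both Rab1 genes were not called. Dennd3, a GEF of Rab12, was at -0.22 (limma adjusted p = 0.0545).

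Of 23 measured Rab GAP genes 1 fell and 0 rose. Tbc1d10c, a TBC domain protein that also inhibits calcineurin, had 9.79, 9.81, 9.81 and 9.45 in male cs-ERα-/- hearts, against 10.12, 10.13, 10.24 and 10.15 in male WT hearts. Female cs-ERα-/- hearts had 9.85, 10.24, 10.09 and 10.38, against 10.32, 10.15, 10.26 and 10.25 in female WT hearts. The male groups did not overlap and the female groups did. Its difference over both sexes was -0.28 (limma adjusted p = 0.018). Within a single sex it was called in males (-0.45, limma adjusted p = 0.0185), where 0.955% of all tested probes were called. In females it was not called (-0.11, limma adjusted p = 0.746), and neither was the interaction (0.34, limma adjusted p = 0.999). It was detected on all 16 arrays. Of 11 lymphocyte and neutrophil markers on the array 5 were detected on no array, 2 were measured and 0 were called. None of the 9 measured GDP dissociation inhibitor, escort and prenylation genes and none of the 30 measured effectors was called; Bicd2, a Rab6 effector that links vesicles to dynein, came nearest (0.15, limma adjusted p = 0.0805). Over all named genes, each by its brightest probe, 2.69% rose and 1.42% fell.

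In the list of other GLUT4 traffic genes, 10 of 21 measured genes had an unadjusted limma p under 0.05 for genotype (4 higher, 6 lower). Over all tested probes this share was 17.6%. Slc2a4 itself was not called (-0.12, SE 0.06, limma adjusted p = 0.27). After adjustment 1 of the 21 genes rose with genotype and 0 fell, while 2.69% of all named genes rose and 1.42% fell. The gene that rose was Exoc4, a subunit of the exocyst that tethers vesicles at the plasma membrane, at 9.43 ± 0.08 in the cs-ERα-/- genotype, against 9.15 ± 0.10 in WT (mean ± SD, n = 8 mice per genotype; 0.27, limma adjusted p = 0.00386). Median scaling ended the genotype calls of Trappc2l, Tbc1d10c and Exoc4, but not that of Dennd2a. The insulin signaling kinase gene Akt2 was at -0.28 (limma adjusted p = 0.17) and Trip10 at -0.17 (limma adjusted p = 0.102). Between the sexes 2 genes of the list were higher in females, as were 0.757% of all named genes by their brightest probe: Sort1, the sorting receptor of GLUT4 vesicles (0.28, limma adjusted p = 0.00224), and Vamp7, a vesicle SNARE (0.56, limma adjusted p = 2.2e-05). Vamp7 was at 8.30, 8.0, 8.23 and 8.10 in female cs-ERα-/- hearts and 8.22, 8.16, 7.90 and 8.17 in female WT hearts, all above the male hearts, which were at 7.89, 7.54, 7.81 and 7.60 in cs-ERα-/- mice and 7.45, 7.40, 7.45 and 7.43 in WT mice. Median scaling ended the sex call of Sort1 (limma adjusted p = 0.0902) and kept that of Vamp7 (limma adjusted p = 9.71e-05). In cs-ERα-/- mice alone neither gene was called (limma adjusted p = 0.38 for Sort1 and 0.116 for Vamp7).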

How the data were processed

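RNA from heart tissue of 16 mice was hybridized to Illumina MouseRef-8 v2 arrays. The deposited table gives, per the file headers, a summarized probe intensity that was not normalized and a detection p-value for each array. The deposited series matrix holds values that the authors had normalized, and it served as an alternative. The authors' methods place the arrays on 2 BeadChips, but the sources used here do not say which array lay on which, so no chip term was fitted. Intensities were background-corrected and quantile normalized with neqc (limma 3.58.1 in R 4.3.3, offset 16), which gives log2 values. A probe was kept where its detection p was under 0.05 on 3 or all 4 arrays of any group (12246 of 25697 probes). A mean per group was fitted with lmFit and eBayes with an intensity trend, and 5 comparisons were drawn from it: cs-ERα-/- minus WT over both sexes and in each sex, female minus male, and the interaction. P-values were adjusted over all kept probes (Benjamini-Hochberg). The scripts were tested on simulated data. The number of arrays limits the precision. Each array was taken as a separate mouse, because the paper's methods describe 16 mice and 16 samples.

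Gene symbols came from the platform annotation (1719 probes had no single symbol), and genes in lists were read on their brightest kept probe. Probe levels were not compared between genes, except to name the brightest probe of a summed list. Values were given for each Rab probe called in any comparison, for the 12 with the smallest p for genotype and the 6 each for sex and interaction, for all other probes of those genes, and for Rab4a, Rab10, Rab14, Rab8a, Rab13, Rab31, Rab3d and Rab32 in any case. Of the other lists, called genes and at most 4 more were named. The members, the lists and this rule were chosen with earlier results of these data known. Alternatives comprised the authors' values, no background correction, median scaling, other probe filters, no trend, an ordinary linear model, a replicate block, fits on 1 sex or genotype, and leaving out each mouse. Promoter sequences are from RefSeq (GRCm38.p6).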

Additional observations from a re-analysis of the deposited data

Results flagged for a closer look

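In each group of 4 mice, the gap between the most extreme mouse and its neighbour was divided by the range of the group and set against the critical value of Dixon's test, for 128 groups of 32 probes that the text gives values for; chance alone marks about 1 group in 20. There were 3 such cases. Rab14 in the second female WT mouse was at 11.54, below the 11.70, 11.72 and 11.72 of the other three (ratio 0.885). Tbc1d10c in the fourth male cs-ERα-/- mouse was at 9.45, below 9.79, 9.81 and 9.81 (ratio 0.931). Exoc4 in the fourth male WT mouse was at 8.97, below 9.17, 9.19 and 9.20 (ratio 0.871). No Rab probe passed the test of a difference between the sexes in the genotype effect.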

How the results depend on the processing

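The count of Rab probes called for genotype was 4, and it was 0 with median scaling and 2 without the probe filter, without the intensity trend, and with an ordinary linear model on either set of values; it ran between 2 and 4 when 1 mouse was left out. In males the count was 1, and it was 0 with median scaling, without the trend and with the ordinary model on either set of values (0 to 1 without 1 mouse). In females it was 1, and it was 0 without the trend, with the ordinary model on either set of values and in a fit of females only (0 to 1 without 1 mouse); with median scaling the 1 call in females was Rab4a (adjusted p = 0.0437), and Rab31 was not called (0.432). For sex it was 0, and 1 with the replicate number as a block (Rab6b, adjusted p = 0.0333; 0 to 1 without 1 mouse), and for the interaction 0 throughout. Rab31 and Rab32 were called for genotype in 24 of 25 alternatives each, all but median scaling. Rab3d was called in 9 of 25 and Rab8b in 7 of 25. Under the block the genotype count stayed 4. Same-numbered mice were not treated as paired: of 24 pairs 7 correlated above 0.1 (range -0.107 to 0.204), 6 of them among the fourth mice of the 4 groups. Rab8a changed sign with median scaling (-0.0268), and without 1 mouse the differences of Rab10 ran from -0.0694 to 0.0217, of Rab13 from -0.0773 to 0.0305 and of the 2 Rab8a probes from -0.0237 to 0.0276 and from -0.0912 to 0.0208. Over all tested probes, median scaling called 131 for genotype (101 higher, 30 lower), against 458 (298 higher, 160 lower), and 79 for sex (52 higher, 27 lower), against 155 (78 higher, 77 lower); 46 against 117 in males and 31 against 87 in females. The median was taken over all 25697 probes, of which 11492 to 12610 were detected on each array. The cause of the lower counts was not tested. Trappc2l, Tbc1d10c, Exoc4 and Sort1 were also not called with median scaling (adjusted p 0.417, 0.142, 0.205 and 0.0902). Tbc1d10c was also not called without the trend (0.054) and with the ordinary model (0.0785, and 0.0824 on the authors' values), and Sort1 and Vamp7 in cs-ERα-/- mice alone (0.38 and 0.116). Dennd2a was called in all 25 alternatives. A BeadChip term was not run because the chip of each array is not given in the sources used here.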
